A study of Caenorhabditis elegans with 18 samples.

Results

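The 7 genes described here mark the strains of a Caenorhabditis elegans heat shock study: unc-119 (M142.1), aqp-10 (ZK1321.3), K09C6.9, wee-1.1 (F35H8.7), C38D9.2, F33H2.6 and F32B5.1. They are 7 of the 20389 genes in the deposited expression table and were chosen because their levels differ strongly between strains at 20 °C or at 34 °C. The strain differences below are therefore descriptions and carry no test, and what was tested is the response of the 7 genes to heat and the behaviour of the genes around them. All 7 were among the 14219 genes that passed the filter on low counts. For wee-1.1, C38D9.2 and F32B5.1 that filter was met through the strains in which they are high. Their heat tests in strains where they are low are therefore given as description only.

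Poly(A) RNA of whole larvae was sequenced at the mid-L2 stage in 3 strains. N2 is the laboratory wild type. PS3551 carries the sy441 allele of hsf-1, which encodes the transcription factor HSF-1 of the heat shock response, and is called the hsf-1(sy441) strain below. AM1062, called the transgene strain, carries hsf-1(sy441) on chromosome I as well, together with unc-119(ed9) on chromosome III and the insertion rmSi1 on chromosome II, which its title gives as an hsf-1::gfp transgene. Each strain was kept at 20 °C or placed at 34 °C for 30 min, with 3 libraries in each of the 6 groups. Nothing in the labels says that the 3 libraries of a group are separate cultures, and p-values below therefore reflect library-to-library spread, which may be technical.

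UNC-119 is a conserved protein that binds the lipid tails of other proteins and brings them to membranes. In worms it is made in neurons, its loss leaves animals uncoordinated, and rescue of unc-119 mutants is a standard way to select animals that carry a transgene. AQP-10 belongs to the aquaporins, membrane channels for water and small solutes. WEE-1.1 belongs to the Wee1 kinases, which hold back entry into mitosis by phosphorylating the cyclin-dependent kinase CDK-1. No role is given here for K09C6.9, C38D9.2, F33H2.6 and F32B5.1, which the annotation lists as protein-coding genes without a name.

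In ce10, the build the deposited files use, 2 of the 7 genes lie on the chromosome of hsf-1, 2 on the chromosome of the rmSi1 insertion and 1 on the chromosome of the ed9 allele, which is its own. The positions are III, 10902549 to 10908831 for unc-119, II, 9768392 to 9769793 for aqp-10, and II, 9581905 to 9583488 for wee-1.1. K09C6.9 lies at V, 853465 to 855077, and C38D9.2 at V, 17566413 to 17571577. F33H2.6 lies at I, 15014840 to 15016584, and F32B5.1 at I, 2700422 to 2702084. On chromosome II, 185 kb separate aqp-10 from wee-1.1. On chromosome I, hsf-1 (11953502 to 11961977) is 3.05 Mb from F33H2.6 and 9.25 Mb from F32B5.1. In the WBcel235 annotation wee-1.1 overlaps exc-7 on the opposite strand and F32B5.1 overlaps a pair of noncoding RNA genes. Whether fragments were counted by strand is not given in the sources used here, so the values of wee-1.1 and F32B5.1 are uncertain in that respect.

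The 18 libraries held between 16.1 and 34.7 counted fragments in units of 1e+06. Levels are given in CPM (counts per 1e+06 fragments after TMM scaling) when libraries are compared for 1 gene, and in the authors' FPKM, which also divides by transcript length, when genes are compared. Between 6.11% and 7.75% of each library's fragments belonged to 114 genes with a failed estimate in at least 1 group, none of them among the 7. In bulk RNA of whole larvae, fewer cells of a type and less RNA per cell cannot be told apart.

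The 7 genes fell into 3 patterns. The genes unc-119, aqp-10 and K09C6.9 were low in the transgene strain and differed much less between N2 and the hsf-1(sy441) strain. The gene wee-1.1 was high in the hsf-1(sy441) strain alone. C38D9.2, F33H2.6 and F32B5.1 were high in both strains that carry hsf-1(sy441).

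**Figure D1:**
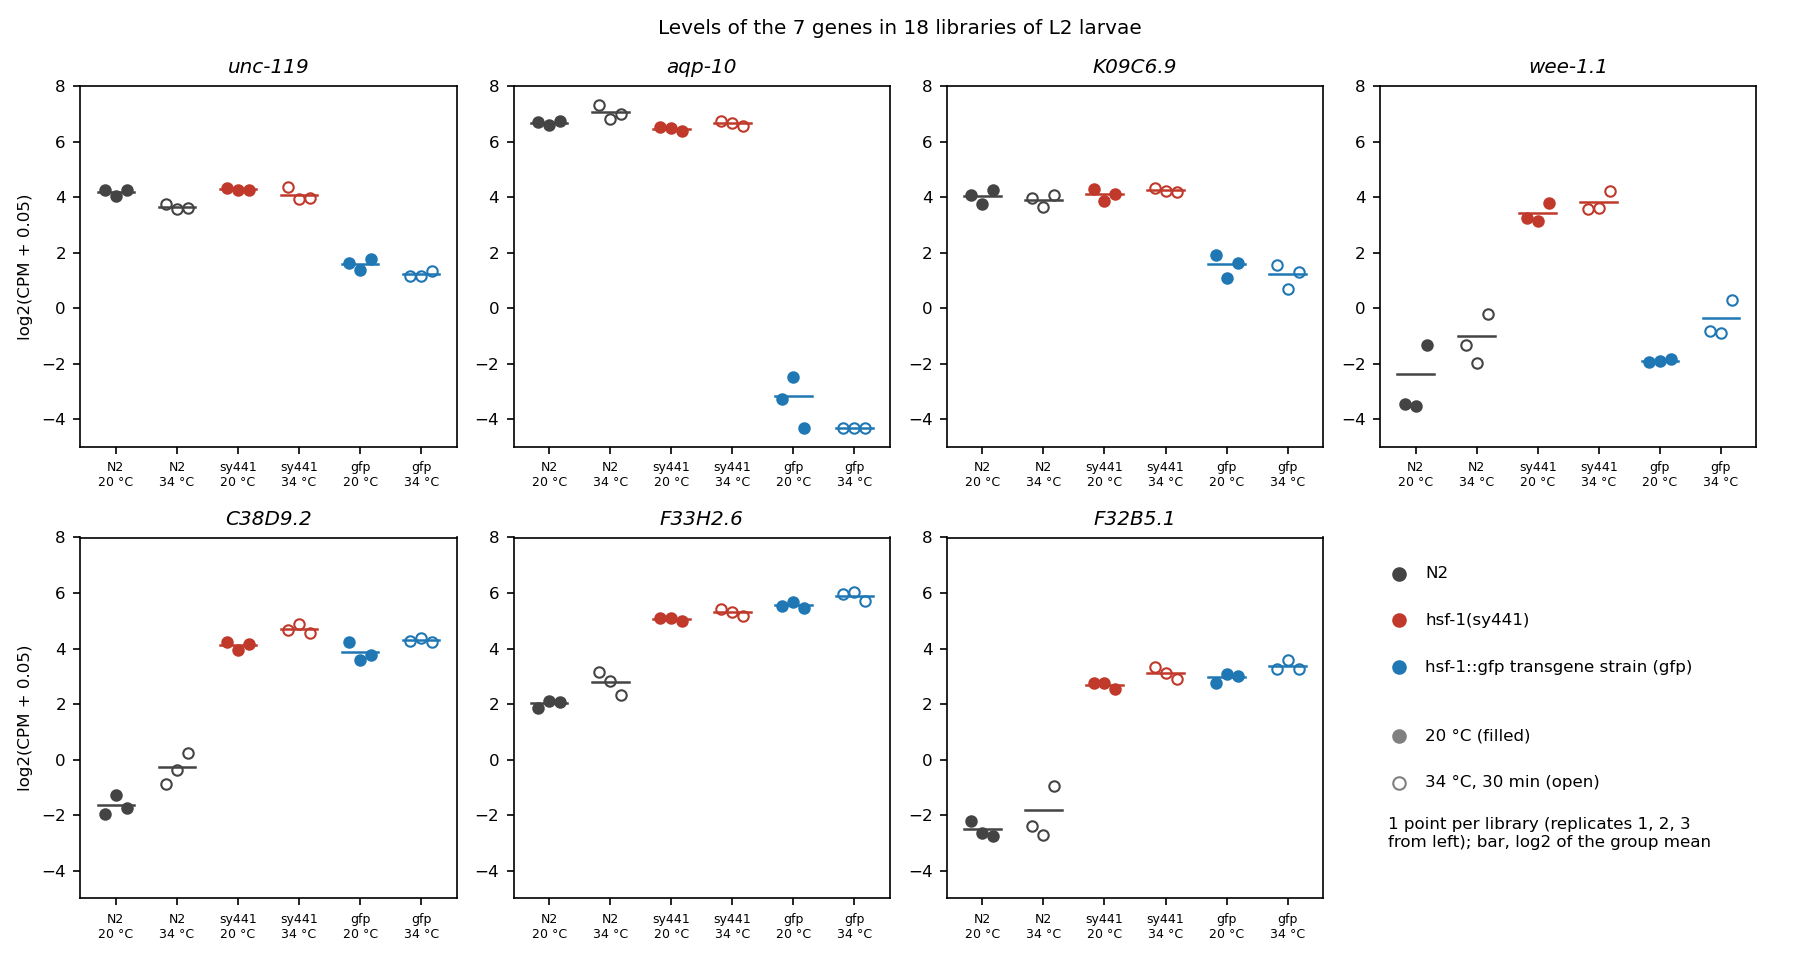
Levels of the 7 genes in each of the 18 libraries, as log2(CPM + 0.05), by strain and temperature, with bars at the group means (n = 3). The transgene strain lies below the other strains for unc-119, aqp-10 and K09C6.9, the hsf-1(sy441) strain alone is high for wee-1.1, and N2 alone is low for C38D9.2, F33H2.6 and F32B5.1.

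The transgene strain kept a low but measurable level of unc-119, the gene whose ed9 allele it carries. Its libraries held 3.01, 2.53 and 3.34 CPM at 20 °C and 2.17, 2.18 and 2.46 CPM at 34 °C, in the order of replicates 1 to 3. In N2 the level of unc-119 was 19.2, 16.3 and 18.8 CPM at 20 °C and 13.3, 11.87 and 11.97 CPM at 34 °C. The hsf-1(sy441) libraries held 20.0, 19.1 and 19.1 CPM at 20 °C and 20.3, 15.1 and 15.5 CPM at 34 °C. Every transgene library was below every library of the other strains. The difference from N2 was 6.12-fold at 20 °C (log2 -2.61, SE 0.13) and 5.45-fold at 34 °C (log2 -2.45, SE 0.14). Between N2 and the hsf-1(sy441) strain the libraries overlapped at 20 °C, with a log2 difference of 0.10 (SE 0.12), and at 34 °C they did not, with 0.45 (SE 0.12). The mean of the transgene strain rested on 189 fragments at 20 °C and 129 at 34 °C.

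The aquaporin gene aqp-10 had almost no fragments in the transgene strain and was abundant in the others. The transgene libraries held 1, 3 and 0 fragments at 20 °C and 0, 0 and 0 at 34 °C. In N2, aqp-10 was at 105, 96.6 and 105.6 CPM at 20 °C and 159, 114 and 126 CPM at 34 °C. In the hsf-1(sy441) strain it was at 91.0, 90.5 and 83.5 CPM at 20 °C and 107, 103 and 94.7 CPM at 34 °C. At 34 °C the gene was at least 2503-fold higher in N2 and at least 1929-fold higher in the hsf-1(sy441) strain, against a floor of 3 fragments over the 3 transgene libraries. At 20 °C, 7296 fragments in N2 stood against 4 in the transgene strain, a ratio of 1635 with a 95% counting interval of 638 to 6002. The ratio of the hsf-1(sy441) strain to the transgene strain was 1418 at 20 °C (554 to 5204), from 8883 fragments against 4. These intervals and the floor cover counting error only. The hsf-1(sy441) libraries were below the N2 libraries without overlap at both temperatures, with log2 -0.21 (SE 0.18) at 20 °C and -0.39 (SE 0.18) at 34 °C.

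In the authors' deposited table, aqp-10 at 20 °C had a log2 ratio of -10.6 for the transgene strain over N2 but a q-value of 0.453, and it was not marked as significant. At 34 °C the same table gave a q-value of 0.00144 and marked it, with an infinite ratio. The authors' table marked unc-119, K09C6.9, C38D9.2, F33H2.6 and F32B5.1 between the transgene strain and N2 at both temperatures. It left wee-1.1 untested at 20 °C and did not mark it at 34 °C. These marks fall on the contrasts that chose the genes, so they are description and no support.

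In the strain differences that chose both genes K09C6.9 was like unc-119, and it lies on a different chromosome. Its transgene libraries held 3.74, 2.06 and 3.02 CPM at 20 °C and 2.88, 1.56 and 2.39 CPM at 34 °C. N2 libraries held 16.6, 13.5 and 18.95 CPM at 20 °C and 15.4, 12.4 and 16.8 CPM at 34 °C. The hsf-1(sy441) libraries held 19.7, 14.4 and 17.4 CPM at 20 °C and 20.0, 18.4 and 18.02 CPM at 34 °C. The transgene strain was below N2 in all libraries, by 5.55-fold at 20 °C (log2 -2.48, SE 0.24) and 6.54-fold at 34 °C (log2 -2.71, SE 0.24). The hsf-1(sy441) strain differed from N2 by log2 0.07 (SE 0.22) at 20 °C, where the libraries overlapped, and by 0.34 (SE 0.22) at 34 °C.

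The Wee1 kinase gene wee-1.1 was close to its detection limit in N2 and the transgene strain. The N2 libraries held 0.0419, 0.0364 and 0.346 CPM at 20 °C and 0.349, 0.205 and 0.803 CPM at 34 °C, from 9 and 21 fragments in all. The transgene libraries held 0.211, 0.214 and 0.229 CPM at 20 °C and 0.519, 0.490 and 1.16 CPM at 34 °C, and at both temperatures they overlapped those of N2. In the hsf-1(sy441) strain the level of wee-1.1 was 9.38, 8.699 and 13.8 CPM at 20 °C and 11.8, 12.3 and 18.4 CPM at 34 °C. Replicate 3 held the highest value in all 6 groups. The hsf-1(sy441) strain stood 75.1-fold above N2 at 20 °C (log2 6.31, SE 0.58) and 31.3-fold above it at 34 °C (log2 4.99, SE 0.52). These folds rest on few N2 fragments: without replicate 3 of N2 at that temperature the log2 difference was 7.91 at 20 °C and 5.69 at 34 °C. It stood 48.8-fold above the transgene strain at 20 °C and 19.6-fold at 34 °C. The overlapping gene exc-7, which encodes an ELAV family RNA-binding protein, did not follow: its mean was 45.7 CPM in N2, 38.8 CPM in the hsf-1(sy441) strain and 46.0 CPM in the transgene strain at 20 °C. Over both temperatures exc-7 differed between the hsf-1(sy441) strain and N2 by log2 -0.06 (SE 0.07, edgeR adjusted p = 0.51).

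C38D9.2 was nearly silent in N2 and similarly high in both strains that carry hsf-1(sy441). N2 libraries held 0.209, 0.364 and 0.247 CPM at 20 °C and 0.488, 0.716 and 1.14 CPM at 34 °C, from 20 and 38 fragments in all. In the hsf-1(sy441) strain the values were 18.6, 15.3 and 17.9 CPM at 20 °C and 25.5, 29.2 and 23.7 CPM at 34 °C. The transgene strain had 18.7, 12.01 and 13.5 CPM at 20 °C and 19.1, 20.99 and 18.8 CPM at 34 °C. The hsf-1(sy441) strain was 63.0-fold above N2 at 20 °C (log2 5.93, SE 0.27) and 33.5-fold at 34 °C (log2 5.06, SE 0.25). The transgene strain was 53.7-fold and 25.13-fold above N2. Libraries of the 2 strains overlapped at 20 °C, with a log2 difference of 0.23 (SE 0.20), and at 34 °C those of the hsf-1(sy441) strain were all higher, by 0.41 (SE 0.19).

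F33H2.6 was the member of this pattern with a clear level in N2. There it was at 3.60, 4.26 and 4.16 CPM at 20 °C and 8.79, 7.01 and 5.02 CPM at 34 °C. The hsf-1(sy441) libraries held 34.6, 34.3 and 31.5 CPM at 20 °C and 43.0, 39.7 and 36.3 CPM at 34 °C. The transgene libraries were higher again, with 46.7, 51.5 and 43.8 CPM at 20 °C and 62.3, 65.1 and 52.7 CPM at 34 °C. The 3 strains did not overlap at either temperature, in the order N2, hsf-1(sy441) strain, transgene strain. The transgene strain was 11.8-fold above N2 at 20 °C (log2 3.56, SE 0.16) and 8.65-fold at 34 °C (log2 3.11, SE 0.16). It exceeded the hsf-1(sy441) strain by 1.41-fold at 20 °C and 1.51-fold at 34 °C.

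F32B5.1 had 9 fragments in the N2 libraries at 20 °C and 11 at 34 °C. These correspond to 0.167, 0.109 and 0.0990 CPM at 20 °C and 0.139, 0.102 and 0.468 CPM at 34 °C. The hsf-1(sy441) strain had 6.65, 6.64 and 5.77 CPM at 20 °C and 9.96, 8.59 and 7.46 CPM at 34 °C, and the transgene strain 6.75, 8.36 and 8.10 CPM and then 9.62, 12.1 and 9.49 CPM. Both strains lay far above N2 in all libraries and overlapped each other at 34 °C. The transgene strain was 61.8-fold above N2 at 20 °C (log2 5.89, SE 0.34) and 43.9-fold at 34 °C (log2 5.48, SE 0.33), and the hsf-1(sy441) strain 50.7-fold and 36.6-fold. Without replicate 3 of N2 at 34 °C, the highest of that group, the log2 differences there were 6.395 for the transgene strain and 6.13, against 5.21, for the hsf-1(sy441) strain.

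The gene hsf-1 itself was also higher in both strains that carry its mutant allele. Its mean level at 20 °C was 39.5 ± 2.17 CPM in N2, 98.0 ± 4.93 CPM in the hsf-1(sy441) strain and 108 ± 5.63 CPM in the transgene strain (SD, n = 3 each). The edgeR quasi-likelihood test over both temperatures gave log2 1.38 (SE 0.07, adjusted p = 1.7e-09) for the hsf-1(sy441) strain over N2. For the transgene strain over N2 it gave log2 1.54 (SE 0.07, adjusted p = 1.5e-09), with fragments of hsf-1 and of the hsf-1::gfp transgene counted together if both align there.

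Per transcript length the order of the 7 genes changed from strain to strain. In N2 at 20 °C aqp-10 was the most abundant, at 131 ± 18.6 FPKM, followed by K09C6.9 at 32.2 ± 6.06 and unc-119 at 25.32 ± 2.101 FPKM. F33H2.6 came next at 4.37 ± 0.19 FPKM, and C38D9.2, wee-1.1 and F32B5.1 lay between 0.0919 and 0.142 FPKM. These last 3 genes could not be put in order beyond their spread. In the hsf-1(sy441) strain at 20 °C aqp-10 was again first, at 119.2 ± 20.1 FPKM. There F33H2.6 (39.0 ± 4.35), K09C6.9 (35.01 ± 4.83) and unc-119 (29.8 ± 0.81 FPKM) formed a second tier, of which the first and second lay within 1 SD of each other. C38D9.2 at 9.22 ± 0.80 and wee-1.1 at 8.16 ± 1.95 FPKM differed by less than the SD of wee-1.1, and F32B5.1 was lowest at 4.92 ± 0.37 FPKM. In the transgene strain at 20 °C F33H2.6 led with 52.5 ± 4.83 FPKM and aqp-10 was last, with a mean of 0.0843 FPKM. Between them, C38D9.2 was at 7.43 ± 1.26, F32B5.1 at 5.78 ± 1.04, K09C6.9 at 5.73 ± 1.56 and unc-119 at 4.40 ± 0.93 FPKM, each within 2 SD of its neighbour, and wee-1.1 was at 0.162 ± 0.0143 FPKM.

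Differences of this size were rare in these libraries. A difference of at least 8-fold between 2 strains in the same direction at both temperatures, with no overlap of libraries and at least 1 CPM in the higher group, was found for 103 genes, or 0.724% of those tested. Since the 7 genes were chosen on these contrasts, their place among the 103 is a description. It holds 5 of them: aqp-10, wee-1.1, C38D9.2, F33H2.6 and F32B5.1. At a 4-fold threshold, 290 genes passed, unc-119 and K09C6.9 included. Between the transgene strain and N2 only 11 genes passed at 8-fold, 9 higher and 2 lower in the transgene strain, and aqp-10, C38D9.2, F33H2.6 and F32B5.1 were 4 of them. Between the hsf-1(sy441) strain and N2, 83 genes passed. Of the 103, 35 lay on chromosome V, 25 on II and 20 on IV, which is 1.16%, 1.05% and 0.881% of the genes tested on those chromosomes, and 8 lay on I.

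The genes whose pattern was most like each of the 7 came from several chromosomes. Likeness was the Pearson correlation of log2 CPM over the 18 libraries, which share their strains, so it largely restates the strain pattern. The 7 themselves were left out of the ranking. Of the other genes Y106G6H.6 on chromosome I was the closest to unc-119 (r = 0.978), aqp-10 (0.947) and K09C6.9 (0.986). The next were scl-6, a gene of the secreted SCP family, and vap-1, a gene of a venom allergen-like secreted protein, for unc-119 and K09C6.9. For scl-6 the mean fell from 17.7 CPM in N2 to 1.21 CPM in the transgene strain at 20 °C, while Y106G6H.6 went from 17.04 to 8.59 CPM, so alike patterns differed in size. For wee-1.1 the closest were K01A2.3 (0.981), Y17G7B.8 (0.976) and ZK973.8 (0.973). Their levels in the hsf-1(sy441) strain at 20 °C were 8.34, 44.9 and 15.7 CPM, against 0.896, 7.42 and 1.23 CPM in N2.

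C38D9.2, F33H2.6 and F32B5.1 shared their closest genes. The F-box gene fbxa-192 led for C38D9.2 (r = 0.982), and Y23H5A.8 led for F33H2.6 (0.976) and F32B5.1 (0.977). Y23H5A.8 rose from 0.217 CPM in N2 to 3.45 CPM in the hsf-1(sy441) strain and 4.54 CPM in the transgene strain at 20 °C. Some of these genes were neighbours at a distance: fbxa-192 lies 69.1 kb from C38D9.2 and Y23H5A.8 lies 65.8 kb from F32B5.1. Outside the 7, hsf-1 was the third closest to F33H2.6 (0.937) and the second to F32B5.1 (0.971). Among the 7 themselves, r lay between 0.962 and 0.983 for the 3 genes of this pattern and between 0.972 and 0.979 for unc-119, aqp-10 and K09C6.9.

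**Figure D2:**
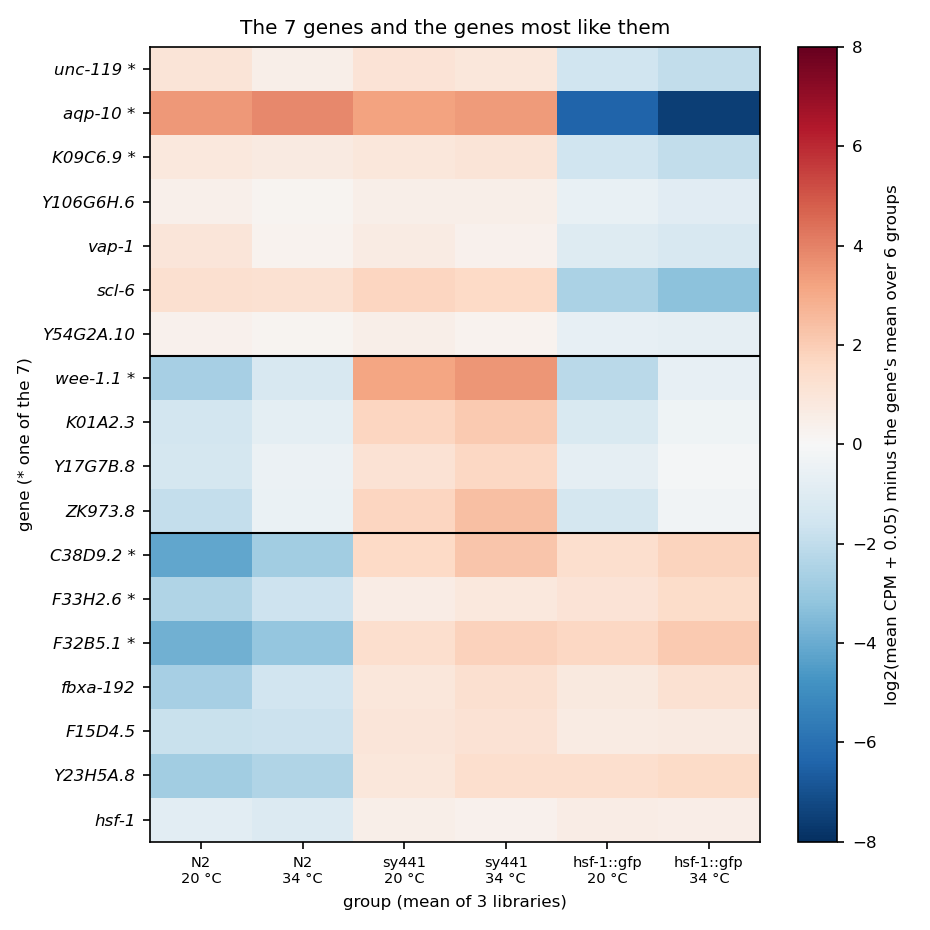
Mean level per group (3 libraries each) of the 7 genes (asterisks) and of the genes most like them, as log2(mean CPM + 0.05) minus the gene's mean over the 6 groups. From top to bottom, the blocks hold genes low in the transgene strain, genes high in the hsf-1(sy441) strain and genes low in N2. Within the top block aqp-10 has the deepest colour and Y106G6H.6 and Y54G2A.10 the palest.

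Heat shock was not the contrast that chose these genes, but the same group values entered the strain contrasts that did. Leaving aside aqp-10 in the transgene strain, their log2 changes with heat lay between -0.55 and 1.73. In N2, C38D9.2 and F33H2.6 rose and unc-119 fell, 3 of the 7 by edgeR's quasi-likelihood test at an adjusted p under 0.05. Of all genes tested 38.4% were called in N2, 18.6% higher and 19.8% lower, so this count was near the background. The N2 libraries of C38D9.2 at 34 °C were all above those at 20 °C, with log2 1.47 (SE 0.31, adjusted p = 0.0019), which rests on 38 against 20 fragments. The gene passed the low-count filter through the other strains, so this call is description only. F33H2.6 rose by log2 0.79 (SE 0.16, adjusted p = 0.0012) without overlap. In N2 unc-119 fell by 0.55 on the log2 scale (SE 0.12, adjusted p = 0.0029), again without overlap. The call of C38D9.2 in N2 was lost on the log2(FPKM + 1) scale (adjusted p = 0.079).

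In the hsf-1(sy441) strain C38D9.2 rose and no other of the 7 passed, 1 of 7 against 31.6% of all genes (15.8% in each direction). Its log2 change of 0.60 (SE 0.19, adjusted p = 0.029) was higher in all 3 libraries. That call was lost without replicate 1, 2 or 3 of the hsf-1(sy441) libraries at 20 °C (adjusted p = 0.057, 0.13 and 0.073) and without replicate 1 or 2 at 34 °C (0.062 and 0.11). It was also lost on library totals without TMM scaling (0.328) and on the log2(FPKM + 0.1) scale (0.0601). In the transgene strain unc-119 fell by 0.38 on the log2 scale (SE 0.14, adjusted p = 0.049), 1 of 7 against 34.1% of all genes, 16% higher and 18.2% lower. This call sat at the threshold and was lost in 17 of 27 alternatives, over which the adjusted p ran from 0.003 to 0.32. Among them were the fits without replicate 1 or 3 of N2 at 20 °C, any hsf-1(sy441) library at 20 °C, transgene replicate 1 or 3 at 20 °C and transgene replicate 1 or 2 at 34 °C, with adjusted p from 0.051 to 0.32.

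Deviations of same-numbered libraries correlated across the 2 temperatures of a strain, with r of 0.367 to 0.786 in N2. The range was 0.184 to 0.725 in the hsf-1(sy441) strain and 0.325 to 0.71 in the transgene strain. Differently numbered pairs reached 0.216, 0.54 and 0.317 in the same order, so the pairing was not clear in the hsf-1(sy441) strain. A fit that paired libraries by number called more genes in total and more of the 7. It called 50.4% of all genes in N2, 46.6% in the hsf-1(sy441) strain and 46.1% in the transgene strain. With this replicate block 5 of the 7 were called in N2, where aqp-10 rose by log2 0.36 (adjusted p = 0.004) and wee-1.1, from 9 to 21 fragments, by 1.72 (adjusted p = 0.007) besides the other 3. In the hsf-1(sy441) strain 3 were called, adding wee-1.1 (log2 0.41, adjusted p = 0.023) and F32B5.1 (log2 0.44, adjusted p = 0.024). In the transgene strain, leaving aside aqp-10, the block called 4. Of these, wee-1.1 (log2 1.66, adjusted p = 0.0024, from 14 to 38 fragments), C38D9.2 (0.44, 0.035), F33H2.6 (0.34, 0.021) and F32B5.1 (0.43, 0.031) rose. The calls of wee-1.1 in N2 and the transgene strain are description only, since it passed the filter through the hsf-1(sy441) strain. For aqp-10 in the transgene strain, with 4 fragments at 20 °C and 0 at 34 °C, no response to heat can be read. With the block the fall of unc-119 in the transgene strain had an adjusted p of 0.053. K09C6.9 was called in no strain with or without the block.

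**Figure D3:**
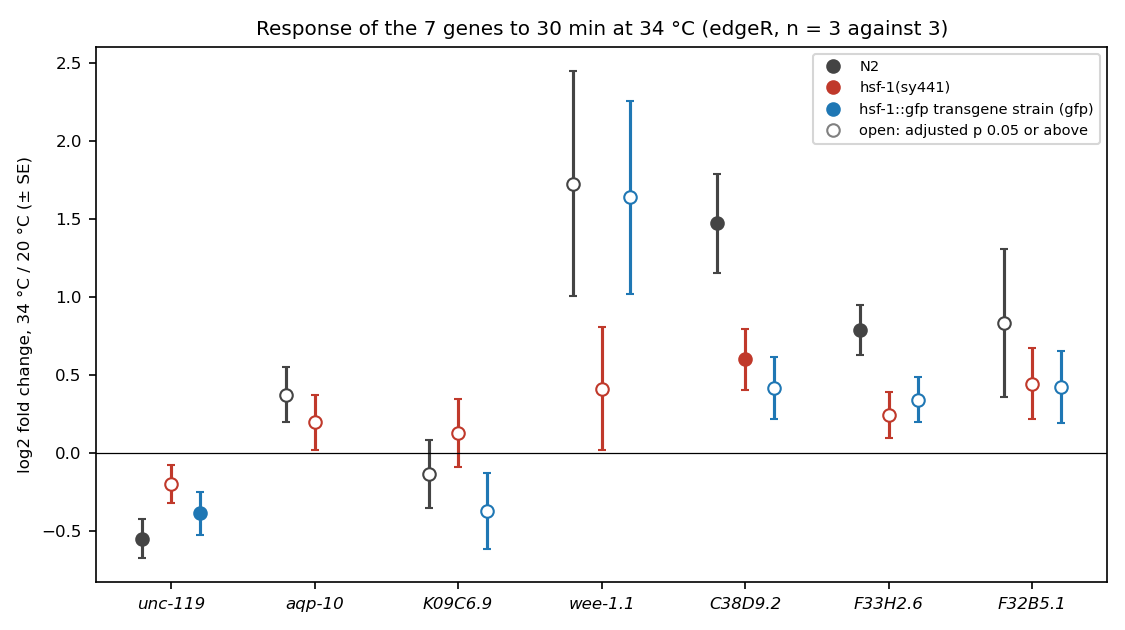
Log2 fold change at 34 °C over 20 °C with its SE for each of the 7 genes in each strain (n = 3 against 3, edgeR, no replicate block). Filled points have an adjusted p under 0.05. Filled are unc-119, C38D9.2 and F33H2.6 in N2, C38D9.2 in the hsf-1(sy441) strain and unc-119 in the transgene strain, while aqp-10 in the transgene strain is left out.

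The signs of the responses are given as description, since the share of all genes with 1 sign in all 3 strains was not computed. C38D9.2, F33H2.6, F32B5.1 and wee-1.1 had positive log2 changes in all 3 strains, with 0.83 (SE 0.47), 0.45 (SE 0.23) and 0.43 (SE 0.23) for F32B5.1 in N2, the hsf-1(sy441) strain and the transgene strain. In N2 the change of F32B5.1 rests on 9 and 11 fragments and that of wee-1.1 on 9 and 21. On library totals without TMM scaling, F33H2.6 in the hsf-1(sy441) strain turned to -0.10, and without replicate 3 of N2 at 34 °C F32B5.1 in N2 turned to -0.086. For wee-1.1 the changes were 1.73 (SE 0.72), 0.41 (SE 0.40) and 1.64 (SE 0.62). All changes of unc-119 were negative. The heat response of C38D9.2 differed from that in N2 by log2 -0.87 (SE 0.37) in the hsf-1(sy441) strain and -1.05 (SE 0.37) in the transgene strain, values that restate the strain contrasts at the 2 temperatures and were not tested. None of the 7 genes is in the authors' deposited list of 1684 genes changed by heat shock in N2. The expression table holds 20389 genes, so the absence of 7 genes from a list of that size says little about their response.

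Markers of neurons, where unc-119 is known to be expressed, fell with heat as well. Of 20 tested neuron markers 16 fell in N2, 10 in the hsf-1(sy441) strain and 14 in the transgene strain, against 19.8%, 15.8% and 18.2% of all genes, and none rose, with median log2 changes of -0.55, -0.48 and -0.66 against 0.02, 0.05 and 0.02 over all genes. Their summed level ran from 1988 to 2086 CPM in N2 at 20 °C and from 1371 to 1480 CPM at 34 °C. The part of these markers in the fall of unc-119 was not tested. In the transgene strain, where unc-119 was low, the sum at 20 °C ran from 2012 to 2205 CPM, and in the hsf-1(sy441) strain 2207 to 2284 CPM was measured. At 34 °C it ran from 1360 to 1598 CPM in the transgene strain and from 1571 to 1791 CPM in the hsf-1(sy441) strain, and none of the 20 markers was at 0 in any group. Over both temperatures 11 of the 20 were higher and none lower in the hsf-1(sy441) strain than in N2, where 22.3% of all genes were higher. Against N2, 1 was higher in the transgene strain, where 3.54% of all genes were higher, and with the replicate block 4 were higher and 1 lower.

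Same-numbered libraries of the transgene strain and N2 also deviated together (r = 0.307 to 0.734), and calls between these strains are given with and without the replicate block. Without it 6.08% of all genes were called, 3.54% higher and 2.53% lower in the transgene strain, and with it 17.9%. Of 7 partners or cargoes of UNC-119 edgeR called 0 in either fit, and DESeq2 and limma called 0, with 2 at an unadjusted p under 0.05. In the hsf-1(sy441) strain arl-3, a small GTPase that releases UNC-119 cargo, was higher by log2 0.67 (SE 0.09, adjusted p = 0.00014) and pdl-1, a lipid-binding carrier gene, by 0.33 (SE 0.12, adjusted p = 0.032), a call lost when any 1 of 8 libraries was left out (adjusted p up to 0.0907). With heat, 5 of the 7 fell in N2 and 4 in each of the other strains, against 19.8%, 15.8% and 18.2% of all genes. Of the 10 other tested aquaporin genes edgeR called 0 between the transgene strain and N2 in either fit, as did DESeq2 and limma, with 1 at an unadjusted p under 0.05. Between the hsf-1(sy441) strain and N2, where 45.2% of all genes were called (22.3% higher, 23% lower), aqp-5 was higher by log2 1.32 (SE 0.35, adjusted p = 0.0083) and aqp-9 lower, with log2 -0.27 (SE 0.09, adjusted p = 0.030). The call of aqp-9 was lost in 11 of 27 alternatives, 7 of them fits without 1 library.

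Around wee-1.1, the list of the CDK-1 switch held 9 tested genes. Against N2, 1 was higher and 3 were lower in the hsf-1(sy441) strain, 4 of 9 where 45.2% of all genes were called. The higher gene was cdc-25.2, a phosphatase gene that opposes Wee1 kinases, with log2 1.60 (SE 0.30, adjusted p = 0.0011). The related kinase gene wee-1.3 differed by -0.22 (SE 0.10, adjusted p = 0.085). Between the transgene strain and N2, where 6.08% of all genes were called, 2 of the 9 were lower. These were the B-type cyclin gene cyb-2.2, with log2 -0.78 (SE 0.21, adjusted p = 0.042), a call lost in 19 of 27 alternatives, and the phosphatase gene cdc-25.1, with log2 -0.43 (SE 0.10, adjusted p = 0.021), lost in 6. With the replicate block cdc-25.2 was called as well, higher by 0.88 (adjusted p = 0.0124). Germline markers, given because Wee1 kinases act in dividing cells, had summed levels of 269 to 304 CPM in N2, 252 to 265 CPM in the hsf-1(sy441) strain and 175 to 269 CPM in the transgene strain at 20 °C. Of 9 germline markers 1 was higher and 1 lower in the hsf-1(sy441) strain than in N2, where 45.2% of all genes were called. The P granule gene pgl-1 was lower in the transgene strain than in N2, with log2 -0.62 (SE 0.10, adjusted p = 0.0011), 1 of 9 against 6.08% of all genes, and with the replicate block 2 were lower.

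Small RNA pathways, in which Argonaute proteins silence matching transcripts, made up a further list. Of 32 genes tested, 7 were higher and 4 lower in the hsf-1(sy441) strain than in N2, where 22.3% and 23% of all genes were. Compared with N2, 5 were higher and 1 lower in the transgene strain, against 3.54% and 2.53% of all genes, and with the replicate block 6 and 1. The helicase gene eri-6 was higher by log2 1.00 (SE 0.07, adjusted p = 2.7e-07) in the hsf-1(sy441) strain. In the transgene strain eri-6 was higher than N2 by 0.36 (SE 0.07, adjusted p = 0.0098), which limma did not call on the FPKM scales. The Argonaute gene sago-1 was lower in the hsf-1(sy441) strain than in the transgene strain, with log2 -0.47 (SE 0.06, adjusted p = 9e-05), a comparison in which 21.5% of all genes were called, 10.1% higher and 11.4% lower in the hsf-1(sy441) strain. Whether these genes bear on the 7 was not tested.

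The gene next to aqp-10 also followed the transgene strain, in the other direction. The gene shk-1 (ZK1321.2), which encodes a Shaker-type voltage-gated potassium channel, lies at II, 9758175 to 9768206, 0.186 kb from aqp-10, and both genes point towards each other on opposite strands. Its transgene libraries held 60.6, 67.1 and 72.2 CPM at 20 °C and 66.6, 65.9 and 83.2 CPM at 34 °C. N2 held 27.6, 26.0 and 31.9 CPM at 20 °C and 17.4, 17.4 and 18.9 CPM at 34 °C, and the hsf-1(sy441) strain 28.9, 27.7 and 31.1 CPM and 16.2, 16.9 and 21.02 CPM. All transgene libraries were above all others. Over both temperatures shk-1 was higher in the transgene strain than in N2 by log2 1.61 (SE 0.08, edgeR adjusted p = 1.6e-08) and the hsf-1(sy441) strain lay below the transgene strain, with log2 -1.59 (SE 0.08, adjusted p = 1.2e-08). The hsf-1(sy441) strain and N2 differed by 0.03 (SE 0.08, adjusted p = 0.82). Both calls of the transgene strain held in all 27 alternatives, with log2 1.55 to 1.70 against N2.

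Heat lowered shk-1 in N2 and the hsf-1(sy441) strain. The changes were log2 -0.67 (SE 0.12, adjusted p = 0.00047) and -0.70 (SE 0.12, adjusted p = 0.00043), and in the transgene strain the change was 0.11 (SE 0.12) and not called. The difference between responses, looked at after these values were seen, was 0.78 (SE 0.17) for the transgene strain over N2 and did not pass (edgeR adjusted p = 0.76, or 0.18 with the replicate block), whereas DESeq2 called it (adjusted p = 0.0221). In that test edgeR called 0 of 14219 genes (0%), with 610 at an unadjusted p under 0.05, and DESeq2 called 13, shk-1 among them. For the hsf-1(sy441) strain over the transgene strain it was -0.80 (SE 0.17, adjusted p = 0.099) without the block and -0.81 (adjusted p = 0.0049) with it. DESeq2 called it too (adjusted p = 0.000824), as did edgeR without replicate 3 of the hsf-1(sy441) strain at 34 °C (0.0283) or of the transgene strain at 20 °C (0.0438). There 28 genes, or 0.197%, were called without the block and 61 with it.

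Over all 7 genes, 100 tested neighbours lay within 50 kb. Of these 11 (11%) were called between the transgene strain and N2, where the share over all genes is 6.08%, or 19 with the replicate block (19% against 17.9%). Called were also 47 (47%) between the hsf-1(sy441) strain and N2 against 45.2%. Between the hsf-1(sy441) strain and the transgene strain 21 were called (21% against 21.5%). Of 17 tested neighbours each of unc-119 and F33H2.6, edgeR with or without the block, DESeq2 and limma called 0 between the transgene strain and N2, with 2 and 0 at an unadjusted p under 0.05. Around K09C6.9, 4 of 12 were called, and 5 with the block.

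Near C38D9.2 several neighbours were also higher in the hsf-1(sy441) strain than in N2. Of 6 tested within 50 kb, 5 were called in this comparison, all higher, where 22.3% of all genes were higher. Most genes listed in this window failed the low-count filter and were not tested. C38D9.5 and fbxa-172, with means of 0.0526 and 0.0483 CPM in N2, passed it through the hsf-1(sy441) strain. Their direction was thus largely set by the filter, and the share over all genes is no background for them. C38D9.5 was higher by log2 4.35 (SE 0.48, adjusted p = 1.8e-05) and the F-box genes fbxa-172 and fbxa-136 by 3.11 (SE 0.54, adjusted p = 0.0006) and 2.45 (SE 0.44, adjusted p = 0.00076). C18D4.6 rose by 1.74 (SE 0.15, adjusted p = 1.3e-06), and it was the 1 of the 6 called in the transgene strain against N2, with 1.17 (SE 0.15, adjusted p = 0.0002). With the replicate block 4 of the 6 were called there, among them C38D9.5 (log2 1.97, adjusted p = 0.037) and fbxa-136 (1.14, adjusted p = 0.0111). Of all genes 17.9% were called there with the block and 6.08% without it. C38D9.2 was similarly high in both strains that carry hsf-1(sy441), but 4 of the 6 neighbours were higher in the hsf-1(sy441) strain than in the transgene strain. Of all genes 10.1% were higher there, a share that again is no background for C38D9.5 and fbxa-172. For C38D9.5 the difference was log2 2.36 (SE 0.38, edgeR adjusted p = 0.00064). The calls of fbxa-172 and fbxa-136 there were lost in 8 of 24 and 11 of 25 alternatives. In CPM C38D9.5 had 1.14 and fbxa-172 0.330 in the hsf-1(sy441) strain at 20 °C. F-box genes of this region belong to a multigene family, so fragments of near-identical copies could have been shared between them.

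Other neighbours of at least 2-fold change were called in the hsf-1(sy441) strain against N2. The cuticle gene cut-6 beside unc-119 was lower by log2 -2.76 (SE 0.59, adjusted p = 0.0025), and the cathepsin gene cpz-1 near F32B5.1 by -2.12 (SE 0.54, adjusted p = 0.007). ZK909.6 near F33H2.6 was lower too, with -1.46 (SE 0.38, adjusted p = 0.0079). Replicate 3 held the lowest value of cut-6, cpz-1 and ZK909.6 in each of the 6 groups. For cut-6 the N2 libraries held 7.74, 10.02 and 2.13 CPM at 20 °C, against 1.36, 0.791 and 0.516 CPM in the hsf-1(sy441) strain. Of 7 hypodermis markers 3 were lower in the hsf-1(sy441) strain than in N2 and none higher, against 23% of all genes lower. Among the 3 were dpy-5 (log2 -3.47, SE 0.74) and rol-6 (log2 -3.13, SE 0.73). The median log2 change of the 7 markers was -0.008, so the fall was not shared by all 7, although their summed level was lower at 20 °C. At 20 °C the summed level of the 7 markers lay between 1755 and 4861 CPM (N2), 590 and 1241 CPM (hsf-1(sy441) strain) and 1268 and 3085 CPM (transgene strain). At 34 °C the ranges were 1881 to 7376, 607 to 1999 and 1270 to 5813 CPM in the same order, and replicate 3 was lowest in all 6 groups. The part of these markers in the levels of the 3 neighbours was not tested. The cytochrome P450 gene cyp-13A5 near aqp-10 was higher by 1.09 (SE 0.42, adjusted p = 0.046), a call lost in 12 of 27 alternatives, 11 of them fits without 1 library. Near F32B5.1, F40E3.5 and F40E3.6, which share a locus, were higher by 1.04 (SE 0.30, adjusted p = 0.013) and 2.98 (SE 0.60, adjusted p = 0.0016). F40E3.6 reached a mean of only 0.522 CPM in the hsf-1(sy441) strain at 20 °C and passed the low-count filter through that strain.

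**Figure D4:**
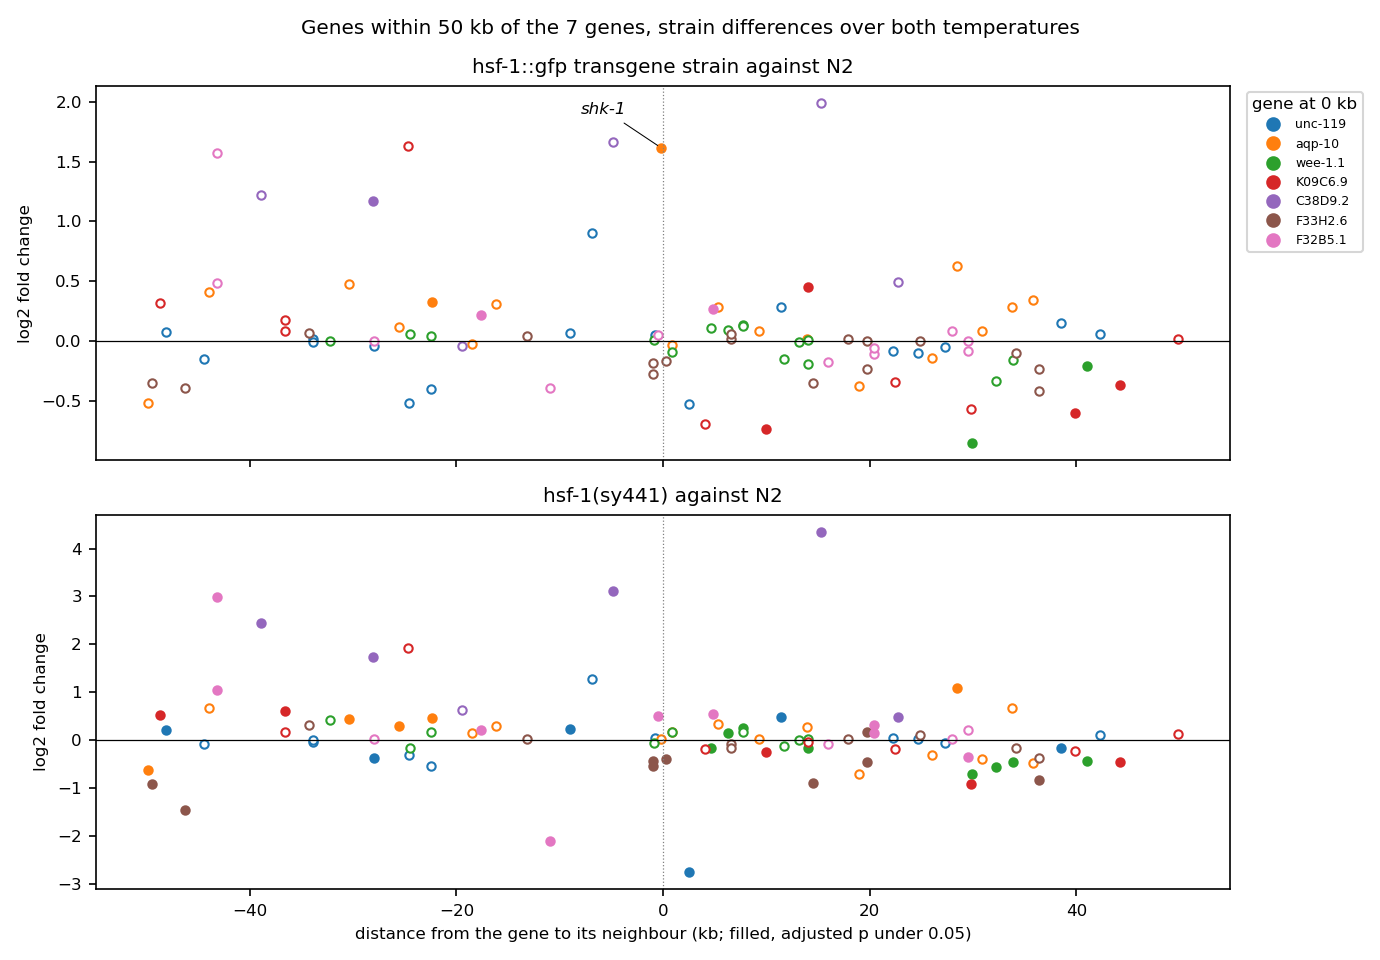
Log2 fold change over both temperatures of the 100 tested genes within 50 kb of the 7 genes, against distance in kb (negative at lower coordinates), for the transgene strain against N2 (top) and the hsf-1(sy441) strain against N2 (bottom). Filled points have an adjusted p under 0.05. In the top panel shk-1 stands at 1.61 beside aqp-10, and in the bottom panel the neighbours of C38D9.2 lie up to 4.35.

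The spread between libraries of a group set how firmly these values can be read. The SD of log2 CPM within groups was 0.15 for unc-119 and 0.20 for F33H2.6, against a median of 0.23 over all genes. It was 0.63 for wee-1.1, larger than for 87.9% of genes tested, and between 0.29 and 0.38 for aqp-10, C38D9.2, F32B5.1 and K09C6.9.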

How the data were processed

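The labels give 18 libraries in 6 groups of 3. TopHat2 and Cuffdiff are the tools, and ce10 the genome build, named per the submitters' processing notes. The deposited tables hold, per the file headers, each library's estimated count of fragments per gene before normalization by the authors, and its FPKM, the authors' value per kilobase of transcript and scaled to library size. They also hold the authors' log2 ratios and q-values for pairs of groups, which appear only where the authors' table is named. Replicates are numbered as in the deposited table plus 1, and were taken in that order as the labels' replicates 1 to 3.

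The estimated counts were rounded to whole numbers and fitted with edgeR 4.0.16 in R 4.3.3: TMM factors (0.85 to 1.239), filterByExpr, quasi-likelihood F tests over 6 group means and Benjamini-Hochberg adjustment over 14219 genes at 0.05. The 114 genes with a failed estimate were left out. Each SE given with an edgeR log2 change is the absolute change divided by the square root of its F statistic. For genes with few fragments this SE need not match the p-value. Deviations of same-numbered libraries correlated between the 2 temperatures of a strain (r = 0.367 to 0.786 in N2, 0.184 to 0.725 in hsf-1(sy441), 0.325 to 0.71 in the transgene strain), so the replicate block is given for heat. Differently numbered libraries lay between -0.736 and 0.216, -0.684 and 0.54, and -0.646 and 0.317, and in hsf-1(sy441) library 1 at 20 °C correlated more with library 2 at 34 °C (0.54) than with library 1 (0.466). All same-numbered pairs of the transgene strain and N2 correlated as well (0.307 to 0.734), and that block is given too. Simulated data with 14219 genes and 200 changed were set as heat shock in N2, with libraries that varied independently. There the fit called 30.3% of 1.5-fold, 67.2% of 2-fold and 89.4% of 4-fold changes, and 0.024% of unchanged genes. Changes were placed only in genes with higher levels in N2 at 20 °C than F33H2.6, C38D9.2, wee-1.1 and F32B5.1. The shares of changes called therefore do not cover those genes.

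Alternatives were other scalings, other filters, DESeq2 1.42.0, limma 3.58.1 on log2(FPKM + 0.1) and log2(FPKM + 1), the replicate block and leaving out each library. The 7 genes and all lists were chosen with earlier results of these data known. Other genes were named by rule: hsf-1, for each of the 7 genes the 3 with the highest correlation, neighbours within 50 kb called with at least 2-fold change, and the 2 called genes per list with the largest strain difference. Named outside it, after their values were seen, were the range of other list members, exc-7, wee-1.3, cdc-25.1, the markers given beside neighbours and the heat response of shk-1. Gene names and strands come from the RefSeq and WBcel235 annotations, which matched 19879 of the genes.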

Additional observations from a re-analysis of the deposited data

How the results depend on the processing

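Without TMM scaling exc-7 turned to log2 0.10 between hsf-1(sy441) and N2. Heat responses of the 7 genes in 27 alternatives kept their direction except as follows. On library totals without TMM scaling, the hsf-1(sy441) responses of aqp-10, F33H2.6 and K09C6.9 turned to log2 -0.14, -0.10 and -0.21, and that of shk-1 in the transgene strain to -0.17. That scaling moved the median of all genes by -0.27, -0.34 and -0.28 for heat (wild type, then hsf-1(sy441), then transgene strain), and by 0.16 for the hsf-1(sy441) strain less N2. It put 18.8%, 12% and 15.4% of called heat changes upward, against 48.4%, 50% and 46.8%, and 72.1%, 83.2% and 64.2% of called strain changes against 49.2%, 58.3% and 47%. The last share was 57.8% with upper-quartile factors and 65.7% and 67.8% with limma at pseudocounts of 0.1 and 1. Leaving out single libraries gave -0.086 to 1.25 for F32B5.1 in N2 (lowest without replicate 3 at 34 °C), -0.011 to 0.21 for K09C6.9 in hsf-1(sy441), -0.037 to 0.068 for shk-1 between hsf-1(sy441) and N2, and -0.011 to 0.20 for shk-1 with heat in the transgene strain; the cause was not tested.

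The number of the 7 called with heat was 3 in N2 and became 5 with DESeq2 and with the replicate block, while the share of all genes went from 38.4% to 41.9% and 50.4%. In hsf-1(sy441) it was 1 and became 2 with DESeq2, 0 on log2(FPKM + 0.1), 2 on log2(FPKM + 1) and 3 with the block, with 31.6%, 37.4%, 24.8%, 25.6% and 46.6% of all genes in the same order. On library totals the call in hsf-1(sy441) was unc-119 in place of C38D9.2. In the transgene strain the call, unc-119, was lost with upper-quartile factors, with no filter and with the 1 CPM filter. RLE factors and log2(FPKM + 0.1) called wee-1.1 alone there. Library totals called unc-119 and aqp-10, and log2(FPKM + 1) called C38D9.2 and F32B5.1. The number there went from 1 to 4 with DESeq2 (38.4% of all genes against 34.1%) and to 5 with the block (46.1%). The 5 include aqp-10, which rests on 4 fragments. Leaving out 1 library gave 3 to 4, 0 to 2 and 0 to 4, the highest in both mutant strains without replicate 3 of N2 at 34 °C. DESeq2 and limma test the same contrasts with other estimates of the spread.

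Between the transgene strain and N2, 864 genes were called, and 1698 with DESeq2, 507 and 497 with limma, 2539 with a replicate block and 511 to 1607 without 1 library, lowest without replicate 1 of N2 at 20 °C and highest without replicate 3 of N2 at 34 °C. Between hsf-1(sy441) and the transgene strain 3053 were called, and 1868 and 1879 with limma, 5071 with the block and 1927 to 4107 without 1 library, lowest without transgene replicate 2 and highest without replicate 3 at 34 °C. Same-numbered libraries correlated with r from 0.307 between the transgene strain and N2, but from -0.057 between hsf-1(sy441) and N2 and from 0.049 between hsf-1(sy441) and the transgene strain, where the block shares only a number. The genes past 8-fold numbered 103, past 4-fold 290 and past 16-fold 37. Of 1026 strain differences of the 7 genes under the alternatives, 987 moved by less than the SD between replicates. Most that moved further came from limma, with 7 of 38 on log2(FPKM + 0.1) and 18 of 38 on log2(FPKM + 1). For hsf-1(sy441) over N2 at 20 °C the lowest log2 difference over the alternatives was 3.04 for wee-1.1 and 2.44 for F32B5.1, against 6.31 and 5.60. Of 42 strain tests of genes outside the 7, 14 lost their call in at least 1 alternative. The 42 leave out shk-1 and include exc-7 and wee-1.3, which had no call to lose. Totals of 9 to 38 fragments per N2 group limit the folds of wee-1.1, F32B5.1 and C38D9.2.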
